A study of Zea mays with 38 samples.

Results

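Leaves of maize (Zea mays) seedlings that had received 8 h of UV-B irradiation were compared with leaves of unirradiated control plants taken at the same hour. The comparison used the 8 samples labelled 8 h, out of 38 samples in the series, which were hybridised on 4 of its 19 two-colour cDNA slides, lettered a to d. On every slide a UV sample was hybridised together with a control sample. UV was labelled with Cy5 and control with Cy3 on slides a and b, and the dyes were swapped on slides c and d. The other 30 samples came from 1, 2, 4 and 12 h and each of those times had control slides of its own, so that a change with the hour of the day was shared by both channels of a slide. Plants had been assigned to UV or control at random. The inbred line B73 is given in the labels of the 1 h and 2 h samples; those of the 8 h samples name seedling leaf and the dye only. Nothing in the labels says whether the 4 slides came from separate plants or extracts, so p-values measure the spread between slides, which may be technical.

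UV-B is absorbed by DNA and proteins and gives rise to reactive oxygen species in leaves. Plants are known to answer it with antioxidant enzymes, DNA repair and flavonoid sunscreens in the epidermis, and, under stronger exposure, with genes shared with wounding and pathogen defence. Photosynthetic genes are known to be reduced in UV-B-treated leaves.

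The array reads transcripts through spotted cDNA features, each named by the identifier of its expressed sequence tag. Of 20076 features, 20014 were tested, 17974 of them with a value on all 4 slides of 8 h, 1974 on 3 and 66 on 2. A change is log2(UV/control), so that 1 is a doubling, fitted by limma with a standard error (SE) that pools the spread over the slides of all times. A gene symbol other than a locus number was at hand for 1166 features of 684 genes. Slides a, b, c and d held 20122, 19569, 18987 and 20003 spots. Their median intensity ran from 258114 to 359289 in control and from 262419.5 to 477212 in UV. The array also carries spots of 7 sequences foreign to maize; the brightest of them averaged 16.80 on the log2 intensity scale at 8 h, and 14341 tested features (71.7%) lay above it. All 5 features of mesophyll markers (pdk1, lhcb5 and Lhcb5-2) and the 1 bundle sheath feature (rbcs1, the small subunit of Rubisco) were above that level, as leaf tissue should give. Features taken as seed markers (of zein, globulin and oleosin genes and of sh2 and o2) were above it in 6 of 9 cases. Of these genes, sh2 and o2 also belong to the starch synthesis and bZIP factor lists used below. Brightness alone thus did not separate tissue markers on these slides.

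After 8 h, UV-treated leaves differed from control leaves in 1510 of 20014 features (7.54%) at an adjusted p under 0.05. Of these, 1012 (5.06%) were higher and 498 (2.49%) lower, and 179 changed by more than 1 on the log2 scale, 80 upwards and 99 downwards. The median size of a called change was 0.57. Among the 1166 named features, 71 rose and 25 fell. The largest rises among named genes were those of a chitinase (chn1), a reversibly glycosylated polypeptide (RGP) and a catalase (CAT3), and the largest falls were those of a beta-expansin (lop1), the bZIP factor genes GBF1 and OBF1 and SE1B. The ratio of higher to lower calls depended on the scaling: with median centring of each slide in place of loess, 47.3% of 3183 calls were higher, against 67.0% in the fit reported here.

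The size of the response differed between slides. Among features called higher, the median log2(UV/control) was 0.69 on slide a, 0.58 on slide b, 0.39 on slide c and 0.34 on slide d. Among those called lower it was -0.73, -0.80, -0.43 and -0.54. The 2 slides with UV in Cy5 thus gave the larger values in both directions, and their log ratios were also more spread over all features (SD 0.592 on both, against 0.405 and 0.366 on slides c and d). The mean of each orientation had the called sign in 1000 of 1012 higher and 488 of 498 lower features, which the calling on the same slides largely fixes. Over all features, 31.5% had 1 sign on every slide that measured them. Over all features, the slides of one orientation correlated at r = 0.477 (a and b) and 0.384 (c and d), and slides of opposite orientation at 0.043 to 0.208; these are descriptions over 20014 features that share the spotted array. The dye term itself passed for 4550 features (22.7%), 319 of which were also called at 8 h.

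**Figure D1:**
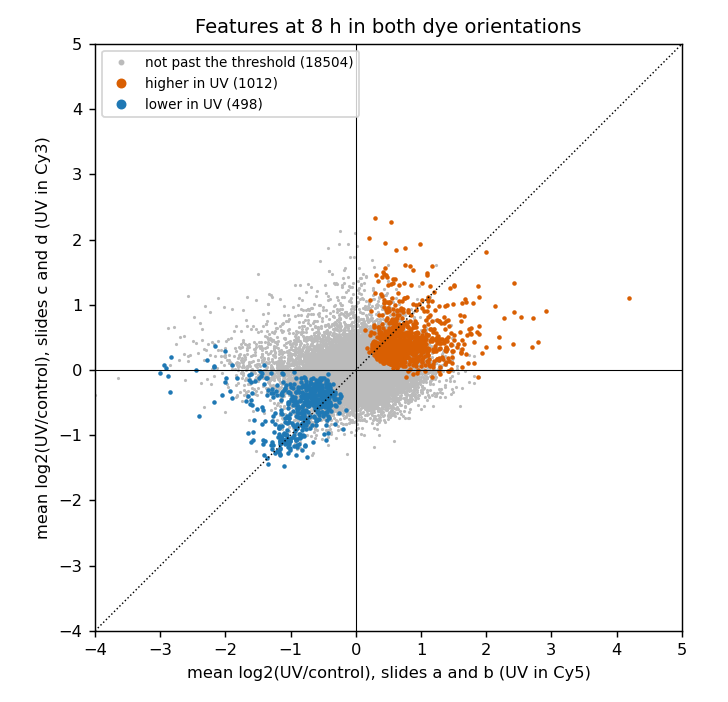
Mean log2(UV/control) at 8 h on the slides with UV in Cy5 (a and b, horizontal axis) against the slides with UV in Cy3 (c and d, vertical axis). Each point is a feature; orange points are the 1012 features called higher in UV, blue the 498 called lower and grey the rest, and the dotted line marks equal values. Most called features lie above 0 on both axes or below 0 on both, and nearer to the horizontal than to the vertical axis.

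The number of calls depended on slide a more than on any other slide of 8 h. Without slide a 7 features passed, against 344 without slide b, 1075 without slide c and 772 without slide d, and the 4 slides of 8 h fitted alone gave 0 with the dye term (5007 features at an unadjusted p under 0.05). All 52 features named below by the selection rule kept their direction without slide a, but none passed, at adjusted p from 0.051 to 0.417. Passing the threshold therefore depended on slide a in all 52, but most of the fitted values did not. Without it, the values of sh1 AI861486 (0.40), aoc1 BQ294408 (0.53), eif3 BQ486812 (0.39) and lop1 BQ486471 (-0.54) moved by over 1.5 times. The other named features moved by less than that.

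The chitinase gene chn1 (feature BE056094) showed the largest rise of any feature. Chitinases cut fungal cell walls and are induced in many plants under attack. Its spot read 224377, 247972, 788362 and 698914 intensity units in the controls of slides a to d, and 3851880, 5001920, 2678030 and 1841770 in UV. After normalization log2(UV/control) was 4.15, 4.22, 1.32 and 0.88, higher in UV on every slide but about 3 log2 units larger on slides a and b than on c and d. The fitted rise was 2.64 ± 0.43 (SE, n = 4, 6.24-fold, adjusted p = 0.0064).

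RGP (AI739985) is named for a polypeptide that is reversibly glycosylated, a protein family of plants that interconverts sugar nucleotides for wall polysaccharides. It stood at 2.19, 1.796, 1.45 and 2.17 on slides a to d, with little difference between dye orientations, and rose by 1.90 ± 0.27 (n = 4, 3.73-fold, adjusted p = 0.00462). A second RGP feature, AI396236, was dimmer than the brightest foreign spot and stood at -0.26 (adjusted p = 0.717).

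The catalase gene CAT3, for an enzyme that breaks down hydrogen peroxide, had values of 2.39, 2.47, 0.83 and 1.85 in feature AI999974 and rose by 1.89 ± 0.26 (n = 4, adjusted p = 0.00462). Its mean log2 intensity of 16.4 was below the brightest foreign spot, and the rise was 1.06 when the deposited intensities were used without normexp (adjusted p = 0.00806). The brighter CAT3 feature AI491472 stood at -0.40 (adjusted p = 0.123). The 2 features therefore did not agree in sign.

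The 10 largest rises also held lls1 (AI979621; lethal leaf-spot 1, for the oxygenase that opens the ring of pheophorbide in chlorophyll breakdown). It stood at 2.23, 2.17, 0.39 and 0.61, again far higher on slides a and b, and rose by 1.35 ± 0.20 (adjusted p = 0.00522). The gene copz2, named for a coat subunit of transport vesicles, rose by 1.17 ± 0.24 (AW000489; 1.49, 1.24, 0.27 and 1.69), and MMT1, for a methionine S-methyltransferase, by 1.12 ± 0.18 (BQ293619; 1.51, 0.84, 0.94 and 1.19). Of the 4 features of MMT1, 3 passed, with AW231323 at 0.66 and BQ280263 at 0.69, and the fourth stood at 0.48. Over all named genes, 86 further features of the same genes were tested, of which 5 rose and 0 fell. Over all features, 5.06% were called higher and 2.49% lower, so the rises among further features lay near the background share. In most named genes a single feature passed. Some of these changes were smaller when the intensities were used as deposited, without normexp: elfa5 stood at 0.81, pip2f at 0.65, copz2 at 0.60, MMT1 BQ293619 at 0.71 and nfc102 at 0.68. The features of pip2f, copz2 and MMT1 BQ293619 were dimmer than the brightest foreign spot. A feature of a sign opposite to another of the same gene was found in 24 of the 34 named genes with several.

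**Figure D2:**
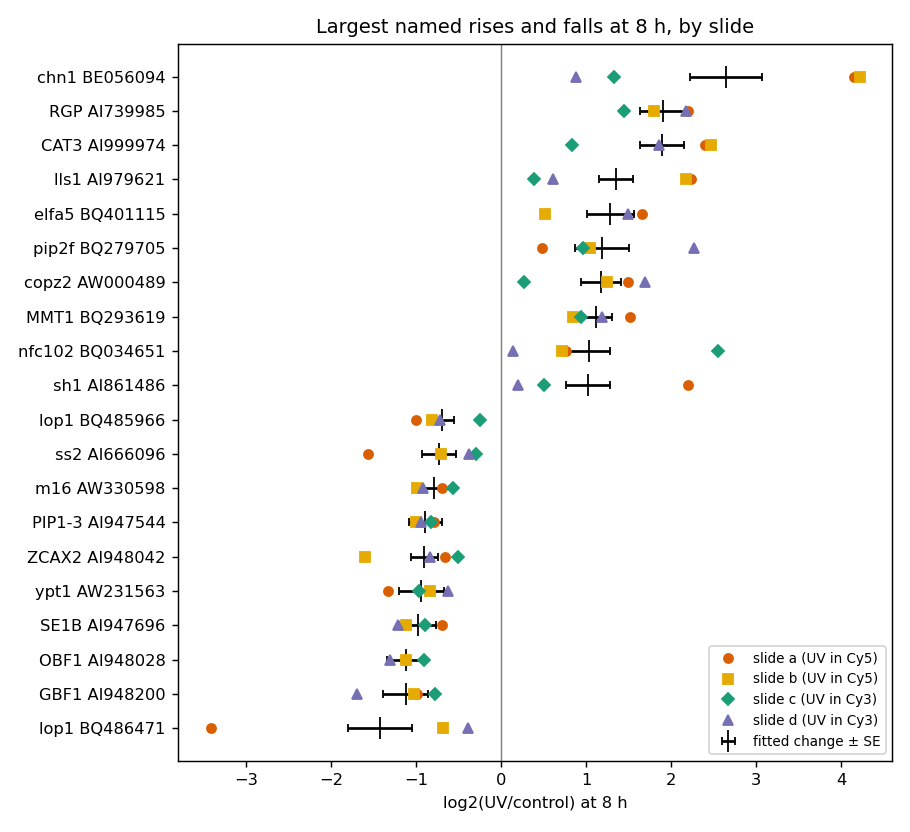
log2(UV/control) at 8 h (horizontal axis) of the 10 largest rises and 10 largest falls among named features. Coloured symbols are the single slides, and the black tick with its bar is the fitted change ± SE. The fits run from -1.42 in lop1 to 2.64 in chn1; chn1 and lls1 separate by dye orientation, while OBF1 and PIP1-3 hold all slides close together.

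Of 29 features on the defence list, 8 rose and 0 fell (27.6% higher, against 5.06% of all features), and the median of the list was 0.09 against -0.0004 over all features. Beside chn1 and lls1, features of genes named for the hypersensitive-induced reaction, a form of rapid cell death around an infection, were higher. The feature AW330866 of hdr10 (also called hir1) stood at 1.29, 1.65, 0.32 and 0.25 and rose by 0.88 ± 0.17 (adjusted p = 0.00916). A second hdr10 feature, AI491543, rose by 0.34 ± 0.099 (adjusted p = 0.0499), while AW244940 stood at -0.05. Of the 8 rises, hdr10 and hir3 gave 2 each, so the 8 were not 8 separate genes. In hir3, BQ134598 rose by 0.73 ± 0.13 (1.00, 0.69, 0.78 and 0.47) and BQ294446 by 0.55 ± 0.11. Cystatins, which inhibit cysteine proteases, gave 2 of the rises, cc4 (AI987490, 0.68 ± 0.19) and cpi2 (AW330962, 0.57 ± 0.096). The cc4 feature was dimmer than the brightest foreign spot and stood at 0.39 without normexp. Its call was lost with loess within print blocks, and a second cc4 feature, AI739880, stood at 0.09. The pathogenesis-related gene pr5 stood at -0.07 (adjusted p = 0.788) and the wound-induced gene wip1 at 0.16 (adjusted p = 0.254). Without slides a, b, c or d in turn, 0, 5, 6 and 7 members of the list passed, all higher.

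The jasmonate synthesis list was drawn by gene symbol for the pathway that makes the wound hormone from chloroplast lipids. It took in every opr gene, and which of these serve the pathway was not examined. Of its 12 features 2 rose (16.7%, against 5.06% of all features) and 1 fell (8.33%, against 2.49%). The allene oxide cyclase feature aoc1 BQ294408 stood at 2.44, 0.55, 0.49 and 0.59, so that slide a lay far above the others; its rise was 1.02 ± 0.23 (adjusted p = 0.0179), 0.53 without slide a (adjusted p = 0.0764) and 0.58 without normexp. BQ294408 was dimmer than the brightest foreign spot. The other 6 aoc1 features ran from -0.41 to 0.67 and none passed. For 12-oxophytodienoate reductase family genes, opr1 rose evenly (AW282358; 0.81, 0.61, 1.15 and 0.96; 0.88 ± 0.19, adjusted p = 0.0126), whereas opr6 fell (AW331431; -0.41, -0.77 and -0.54 on slides a, b and d; -0.59 ± 0.14, adjusted p = 0.0207), a call lost with scaling between slides. Features of aos1 (0.07), lox3 (0.27) and opr8 (-0.41) did not pass.

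Of 22 antioxidant features 5 rose (22.7%, against 5.06% of all features) and 0 fell, with a median of 0.14. The peroxidase PER42 (AI978227), a secreted heme enzyme that uses hydrogen peroxide, stood at 1.13, 1.08, 0.79 and 0.60 and rose by 0.90 ± 0.18 (adjusted p = 0.0101). The thioredoxin h gene trh2, for a small disulfide reductase, rose by 0.71 ± 0.12 in AI670386 (0.89, 0.81, 0.70 and 0.44), while its second feature BQ172599 stood at -0.38 (adjusted p = 0.083). Superoxide dismutases, which turn superoxide into hydrogen peroxide, gave 2 small rises, sod2 at 0.42 ± 0.12 (BQ279929) and sod3 at 0.39 ± 0.10 (AI665006). The call of sod2 was lost with scaling between slides, with the matrix scores and without the dye term. The catalase genes cat1 (-0.42 to 0.60 over 3 features) and cat2 (-0.39, adjusted p = 0.102) did not pass. Without slides a, b, c or d in turn, 0, 4, 4 and 4 features rose.

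None of the 20 glutathione S-transferase features passed, a family of detoxifying enzymes; the outermost values were those of gst18 at 0.78 (AW065603, adjusted p = 0.0907) and a gst41 feature at -0.75 (AI738277, adjusted p = 0.0973). Among 29 features for folding in the endoplasmic reticulum, 23 were above 0 and the median was 0.22, the highest of the 21 lists. Of these features 1 passed, a rise (3.45%, against 5.06% of all features). That was the protein disulfide isomerase pdi (AI665069; 0.47, 2.27, 0.25 and 0.35; 0.84 ± 0.21, adjusted p = 0.0274), for which slide b lay far above the others and which stood at 0.37 without it (adjusted p = 0.0612). Other pdi features stood at -0.34, 0.43 and -0.04, none passing. The calreticulin crt2, a calcium-binding chaperone, reached 0.79 in AW066588 (adjusted p = 0.142). Of 12 heat shock features 1 fell (8.33%, against 2.49% of all features). The falling feature was hsp101 (AW257917), for the chaperone that dissolves protein aggregates, at -0.98, -0.54, -0.64 and -0.10 (-0.57 ± 0.15, adjusted p = 0.0359). It was dimmer than the brightest foreign spot, and the value was -0.30 without normexp and -1.39 with median centring.

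Translation held the largest number of called list members: 12 of 65 features rose (18.5%, against 5.06% of all features) and 0 fell. The median was 0.18, with 45 features above 0. The elongation factor gene elfa5, which encodes EF-1 alpha, the carrier of aminoacyl-tRNA, stood at 1.66, 0.52 and 1.48 on slides a, b and d and rose by 1.28 ± 0.28 (BQ401115, n = 3, adjusted p = 0.0158). The 2 other elfa5 features stood at -0.18 and 0.38. The initiation factor gene eif3 rose by 0.84 ± 0.22 (BQ486812; 2.16, 0.26, 0.59 and 0.36), with a value of 0.39 without slide a and 0.50 without normexp, and lost its call with loess within print blocks. BQ486812 was dimmer than the brightest foreign spot. The 4 other eif3 features stood at 0.02, -0.02, -0.04 and 0.40, none passing. Features of ribosomal protein genes rose too. The acidic stalk protein gene arpp2a (BU093490) stood at 1.03, 0.85, 0.54 and 0.63 (0.76 ± 0.16, adjusted p = 0.0106), rpl17 at 0.61 ± 0.11 (AI714634) and ec2e, whose RefSeq synonym is rpl39, at 0.55 ± 0.10 (AI668498). Of the 5 arpp2a features 2 rose, the second being AI676985 at 0.50 (adjusted p = 0.0454). Not passing were AI619355 at 0.50, BQ486745 at 0.02 and AI461569 at -0.73 (adjusted p = 0.0629). The 2 other rpl17 features stood at -0.47 (AI711703) and 0.12 (BQ294435), neither passing. Without slides a, b, c or d in turn, 0, 6, 8 and 7 features of the list rose and 0 fell.

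**Figure D3:**
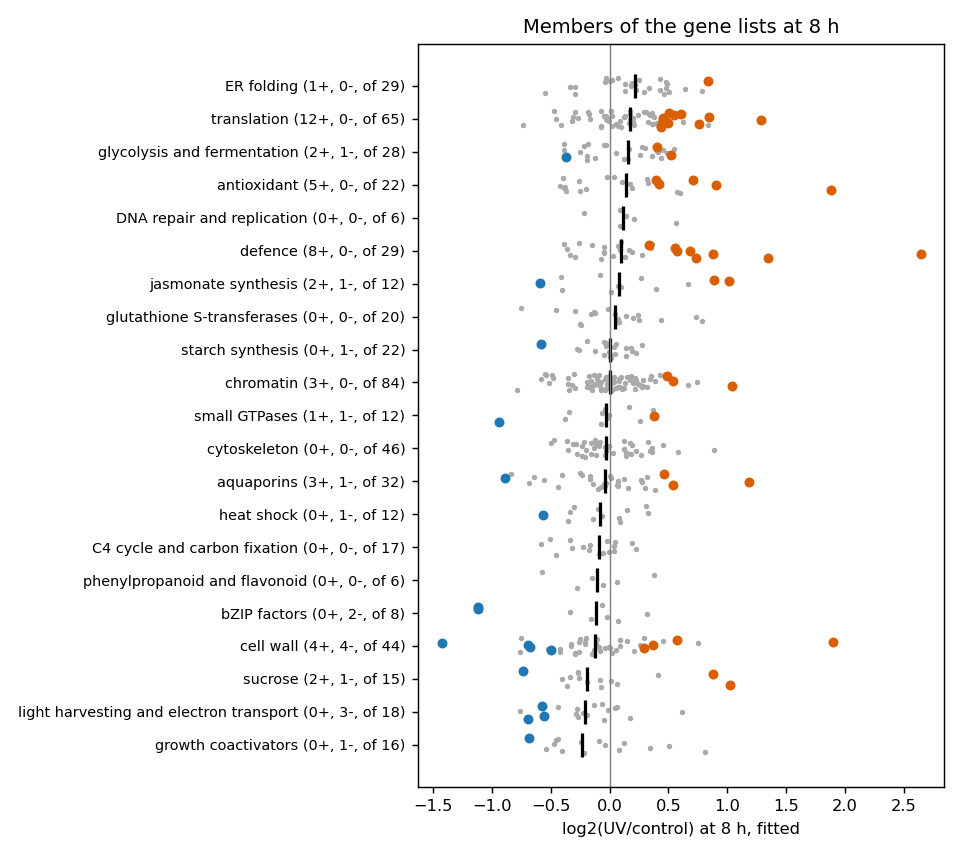
Fitted log2(UV/control) at 8 h (horizontal axis) of every tested member of the 21 gene lists (vertical axis), with the number that rose (+), fell (-) and were tested behind each name. Orange points rose, blue points fell, grey points did not pass, and the black tick is the median of the list. Medians run from -0.23 for growth coactivators to 0.22 for folding in the endoplasmic reticulum.

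Genes of light harvesting and electron transport were lower where they passed. Of 18 features 3 fell (16.7%, against 2.49% of all features) and 0 rose, and the median of the list was -0.21. The gene por, for the light-dependent protochlorophyllide reductase of chlorophyll synthesis, stood at -0.80, -1.16, -0.22 and -0.58 (AW331579; -0.69 ± 0.13, adjusted p = 0.00946), below 0 on every slide and least so on slide c. Its dimmer feature AI973520 stood at 0.04. The antenna protein genes lhcb5 (AW927758; -0.50, -0.57, -0.23 and -0.92; -0.56 ± 0.13, adjusted p = 0.0246) and Lhcb5-2 (AI834658; -0.30, -0.64, -0.26 and -1.08; -0.57 ± 0.16, adjusted p = 0.0428) fell most on slide d. Both antenna calls were lost with median centring. Without slides a, b, c or d in turn, 0, 0, 3 and 1 features of the list fell. The C4 cycle and carbon fixation list had no call among 17 features (median -0.09). Its lowest value was -0.58 for gpa1, a chloroplast glyceraldehyde-3-phosphate dehydrogenase subunit (AI649788, adjusted p = 0.0793), and both features of pdk1, pyruvate phosphate dikinase of the C4 pump, lay below 0 (-0.46 and -0.33). In whole leaves, fewer cells of a type and less RNA per cell cannot be told apart.

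In the sucrose list 2 of 15 features rose (13.3%, against 5.06% of all features) and 1 fell (6.67%, against 2.49%), with a median of -0.19. The sucrose synthase gene sh1 rose in 2 of its 4 features: AI861486 by 1.02 ± 0.26 (2.19, 0.50 and 0.19 on slides a, c and d, adjusted p = 0.0283) and AI711818 by 0.88 ± 0.25 (1.59, 2.16, -0.32 and 0.09, adjusted p = 0.0418). The rise of AI861486 was 0.40 without slide a and that of AI711818 0.57 without slide b, and the latter lost its call with loess within print blocks. AI711818 averaged 1.87 with UV in Cy5 but -0.11 with UV in Cy3, so its rise was seen in 1 dye orientation only. The 2 other sh1 features stood at -0.27 (AI881652) and 0.41 (BQ294388) and did not pass. The feature AI666096 of ss2, whose RefSeq synonym sus1 marks it as another sucrose synthase, fell by 0.74 ± 0.20 (-1.57, -0.71, -0.29 and -0.38, adjusted p = 0.0371). That feature was dim and lay in the last row of print blocks, and with loess within blocks it stood at -0.19 (adjusted p = 0.222), against -1.55 with median centring and -0.38 without normexp; the 4 other ss2 features ran from -0.26 to 0.06. In glycolysis and fermentation, 2 of 28 features rose (7.14%, against 5.06% of all features), the enolase eno1 (AW258101, 0.52 ± 0.11) and the alcohol dehydrogenase adh2 (AI820364, 0.40 ± 0.099). The phosphohexose isomerase phi1 fell (BE012178, -0.37 ± 0.10, adjusted p = 0.0359), as 1 of the 28 (3.57%, against 2.49% of all features). Its call was lost with loess within blocks and with median centring. Other phi1 features ran from -0.39 to 0.16, none passing. All 5 eno1 features lay between 0.30 and 0.55. In starch synthesis the branching enzyme sbe1 fell (AI820327, -0.58 ± 0.17, adjusted p = 0.0476), a call lost with median centring. It was the only passing feature of 22 (4.55%, against 2.49% of all features called lower).

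The cell wall list had 4 rises and 4 falls among 44 features (9.09% each, against 5.06% higher and 2.49% lower over all features), with a median of -0.12. Apart from RGP, the rises were small: the glycine-rich protein gene grp1 at 0.57 ± 0.14 (AI820397), cesa6 at 0.37 ± 0.10 (AW225232) and the hydroxyproline-rich glycoprotein gene HRGP at 0.29 ± 0.069 (AW282419). The grp1 feature AI820397 stood at -0.02 on slide d, and other grp1 features ran from -0.10 to 0.26, none passing. The falls belonged to lop1 and CesA-9. By its RefSeq synonyms lop1 is a beta-expansin, a protein family that loosens grass cell walls during growth, and all 9 of its features lay below 0, 3 of them past the threshold. BQ486471 stood at -3.42, -0.69 and -0.39 on slides a, b and d and fell by 1.42 ± 0.38 (adjusted p = 0.0342), and it stood at -0.54 without slide a. BQ485966 was more even at -0.997, -0.81, -0.25 and -0.72 (-0.70 ± 0.14, adjusted p = 0.0102). BE128826, dimmer than the brightest foreign spot, fell by 0.50 ± 0.14, a call lost without normexp (-0.31, adjusted p = 0.0784). CesA-9 (AW330905), for a cellulose synthase, stood at -0.70, -0.93, -0.33 and -0.75 and fell by 0.68 ± 0.16 (adjusted p = 0.0207), a call lost with scaling between slides and without the dye term. Of 16 features of growth-regulating factors and their coactivators, 1 fell (6.25%, against 2.49% of all features). That was GIF3 (AI666227), at -1.20, -0.98, -0.36 and -0.21 (-0.68 ± 0.13). GIF3, like ss2, was dim and lay in the last row of print blocks, and stood at -0.14 with loess within blocks (adjusted p = 0.411), -1.50 with median centring and -0.36 without normexp.

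After lop1 the largest falls among named genes included GBF1, OBF1, SE1B, ZCAX2 and PIP1-3, each below -0.50 on every slide. GBF1 and OBF1 encode bZIP transcription factors that bind the G-box and the ocs element of plant promoters. GBF1 (AI948200) stood at -0.99, -1.02, -0.78 and -1.69 and fell by 1.12 ± 0.26 (adjusted p = 0.0201). OBF1 (AI948028) stood at -1.14, -1.12, -0.91 and -1.31 and fell by 1.12 ± 0.22 (adjusted p = 0.00999). SE1B (AI947696) fell by 0.98 ± 0.21 (-0.70, -1.13, -0.90 and -1.21). ZCAX2, for a vacuolar cation/proton exchanger, fell by 0.90 ± 0.16 (AI948042, at -0.67, -1.60, -0.51 and -0.84) in a feature dimmer than the brightest foreign spot. The plasma membrane aquaporin PIP1-3 fell by 0.89 ± 0.19 (AI947544, at -0.79, -1.01, -0.82 and -0.94). No other feature of these genes passed as lower: OBF1 BQ279932 stood at 0.32, the 2 further SE1B features at 0.17 and 0.38, ZCAX2 AI783307 at 0.06, and of PIP1-3 the feature BQ293420 rose by 0.54 ± 0.11 (adjusted p = 0.0123) while AI738281 stood at -0.40.

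The identifiers of these 5 falling features all start with AI947 or AI948, a grouping noticed after their values were seen. Of 391 tested features with such identifiers, 103 were called lower (26.3%) and 2 higher (0.512%), with a median of -0.34. The other 19623 features had 395 lower calls (2.01%), 1010 higher calls (5.15%) and a median of 0.004. The low values appeared on every slide, with medians of -0.36, -0.39, -0.23 and -0.33 on slides a to d. They also appeared with loess within print blocks, where 124 of the 391 were called lower. Among the 24 of them with a gene symbol, 5 fell and 1 rose, against 2.49% lower and 5.06% higher over all features. The rise was that of the tonoplast aquaporin tip1 (AI947890, 0.46 ± 0.11). Other tip1 features stood at -0.23 and 0.30, neither passing. The array is printed in 12 rows of blocks, and rows 9, 10, 11 and 12 held 95, 51, 96 and 47 of the 391. The part of position in these falls was not tested.

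Position on the slide moved with the changes in a second way. The median change over all features of a block row ran from -0.19 in row 12 to 0.07 in row 9. In row 12, 48 features (3.72%) were lower and 5 (0.387%) higher, and after loess within print blocks 3 were lower and 12 higher. Slides a and b had the lowest medians there (-0.23 and -0.36), against 0.02 and -0.03 on slides c and d. Slide c was lowest in row 1 (-0.29).

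**Figure D4:**
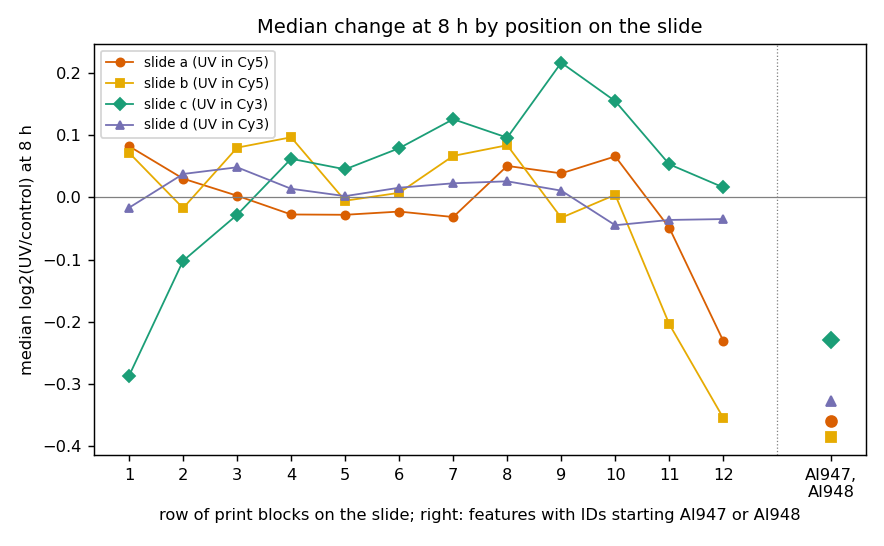
Median log2(UV/control) at 8 h (vertical axis) of all tested features in each of the 12 rows of print blocks (horizontal axis), by slide, and at the right of the 391 features whose identifiers start with AI947 or AI948. On slides a and b row 12 lies at -0.23 and -0.36, and the features at the right lie between -0.23 and -0.39 on all slides.

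Other membrane and trafficking genes changed singly. Of 32 aquaporin features, which code for water channels, 3 rose (9.38%, against 5.06% of all features) and 1 fell (3.12%, against 2.49%). The plasma membrane channel pip2f stood at 0.48, 1.04, 0.96 and 2.27 (BQ279705, 1.19 ± 0.32, adjusted p = 0.0353). Its feature was dimmer than the brightest foreign spot, and lost its call with loess within print blocks (adjusted p = 0.0709). The Rab-type GTPase gene ypt1, for a switch of vesicle traffic, fell by 0.94 ± 0.26 (AW231563; -1.33, -0.83, -0.97 and -0.62; adjusted p = 0.04), and lost its call with loess within blocks too. Its relative yptm3 rose by 0.38 ± 0.073, evenly over slides (AI782988; 0.33, 0.49, 0.33 and 0.36), but its 4 other features ran from -0.38 to 0.16. The MADS-box gene m16, known from flower development, fell by 0.79 ± 0.22 (AW330598; -0.70, -0.99, -0.56 and -0.92; adjusted p = 0.0415), a call lost without the dye term.

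Among 84 chromatin features 3 rose (3.57%) and 0 fell, with a median of 0.003, which is below the background share of higher calls. The chromatin assembly gene nfc102 stood at 0.76, 0.72, 2.54 and 0.13 (BQ034651; 1.04 ± 0.25), with slide c far above the rest; the value without that slide was 0.52 (adjusted p = 0.0405). The HMG-box gene nfd101 rose by 0.54 ± 0.099 (BQ294160) and the nucleosome assembly gene nfa103 by 0.49 ± 0.13 (AI795363), the latter not with loess within blocks. Other features of nfd101 stood at -0.18, -0.15, -0.04 and 0.39, and those of nfc102 at -0.04, 0.08 and 0.28, none passing. None of 46 cytoskeleton features passed; tubulin, profilin and depolymerising factor genes ran from -0.49 to 0.89.

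Sunscreen and repair genes were thinly covered. None of 6 phenylpropanoid and flavonoid features passed. The flavonoid gene f3h stood at -0.15 and a2 at -0.28, both dimmer than the brightest foreign spot. The lyase gene pal3, which opens the phenylpropanoid pathway, stood at 0.06, and the methyltransferase gene pOMT1 at -0.58 (adjusted p = 0.0669). None of 6 DNA repair and replication features passed. The recombinase gene rad51a reached 0.56 (BQ279701, adjusted p = 0.276), and the 4 pcna features, for the sliding clamp of replication, lay between 0.09 and 0.21.

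Alternatives of normalization ended further calls. Scaling between slides ended 15 of the 52, among them grp1, sbe1, hsp101, lhcb5 and Lhcb5-2, and leaving out the dye term ended 13, among them both sh1 features. With the matrix scores 9 calls were lost, among them elfa5, pip2f and glb1. The calls of chn1, RGP, CAT3, lls1, copz2, PER42, por, SE1B, OBF1 and GBF1 passed in each of these 3 settings.

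Most called features, like most tested ones, have no gene symbol here other than a locus number. Of 1510 calls, 1414 were without one. Only 1166 of the 20014 tested features had such a symbol, and 8.23% of these were called, against 7.54% of all features. The 2 largest passing rises among features with no symbol were AW065709 (3.17, 2.67, 1.02 and 0.79; 1.91 ± 0.27, adjusted p = 0.00462) and AW287785 (2.76, 2.67, 0.80 and 0.80; 1.76 ± 0.30), both larger on slides a and b. The 2 largest passing falls were AW566237 (-2.997, -2.71, 0.10 and -0.77; -1.59 ± 0.37, adjusted p = 0.0183), which lay above 0 on slide c, and AI665952 (-1.50, -3.30, -0.90 and -0.51; -1.55 ± 0.38, adjusted p = 0.0222).

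The response at 8 h was set against that at the other times, each of which had its own slides and controls. Tested directly, 0 of 20014 features (0%) differed between 8 h and the mean of 1, 2, 4 and 12 h by limma at an adjusted p under 0.05. The smallest adjusted p was 0.209, and 1886 features had an unadjusted p under 0.05. No change is therefore called particular to 8 h. Among named features, those taken by the smallest p on the higher side were MMT1 BQ293619 (0.94 above the other times), glb1 AW066754 (0.81) and hir3 BQ134598 (0.63), and on the lower side ZCAX2 (-0.74), SE1B (-0.95) and OBF1 (-1.03). The glb1 feature, for a seed globulin, was the dimmest of the named features and turned to -0.16 at 8 h with median centring. The comparison gained 193 calls without slide c of 2 h.

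Features called at 8 h mostly had the same direction at 2 h. Of the 1012 higher features, 943 were above 0 at 2 h (93.2%, against 48.4% of all features) and 313 were also called higher there (30.9% of the 8 h list and 57.2% of the 547 features of the 2 h list, 2.73% of all). Of the 498 lower features, 478 were below 0 at 2 h (96%), and 105 were called lower, against 1.42% of all features. At 12 h the directions parted. Higher features were above 0 in 908 cases (89.7%, against 49.3% of all features), and 272 were called higher, against 2.32% of all features. Lower features were below 0 in 266 cases (53.4%), close to the share over all features, of which 49.3% lay above 0. Of the 498 lower features, 78 were called lower, against 2.01% of all features, and the median of the 498 was -0.03. At 1 h and at 4 h no feature passed in the limma fit, with 1566 and 968 at an unadjusted p under 0.05. The medians of the higher and lower features were 0.06 and 0.07 at 1 h, and 0.06 and -0.18 at 4 h. Across features the fitted changes at 8 h correlated with those at 1, 2, 4 and 12 h at r = -0.0501, 0.545, 0.373 and 0.185, given as descriptions over 20014 features that share the arrays and the fitted dye term.

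Single genes followed several courses. RGP stood at -0.26, 1.34, 0.25, 1.90 and 2.34 at 1, 2, 4, 8 and 12 h, and chn1 at -0.87, 1.37, 0.41, 2.64 and 2.31. PER42 stood at 0.15, 1.04, 0.27, 0.90 and 1.29. All 3 lay above 0 on every slide of 2, 8 and 12 h, although the value of chn1 at 2 h did not pass (adjusted p = 0.124). At 4 h the slides split: chn1 stood at -0.04, 1.15, 1.44 and -0.89 on slides a to d, RGP at -0.32, 0.93, 1.25 and -0.83, and PER42 at -0.24, 0.97, 0.72 and -0.39. Slides b and c of 4 h were thus high and slides a and d below 0. The falling genes GBF1 (0.12, -0.67, -0.16, -1.12 and 0.41), OBF1 (0.35, -0.71, -0.29, -1.12 and 0.29) and ypt1 (0.57, -1.21, -0.23, -0.94 and 1.20) lay above 0 at 1 and 12 h. The 391 features with identifiers starting AI947 or AI948 had medians of 0.10, -0.34, -0.10, -0.34 and 0.13 over the same times. The chlorophyll synthesis gene por lay below 0 throughout, at -0.11, -0.63, -0.12, -0.69 and -0.25.

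**Figure D5:**
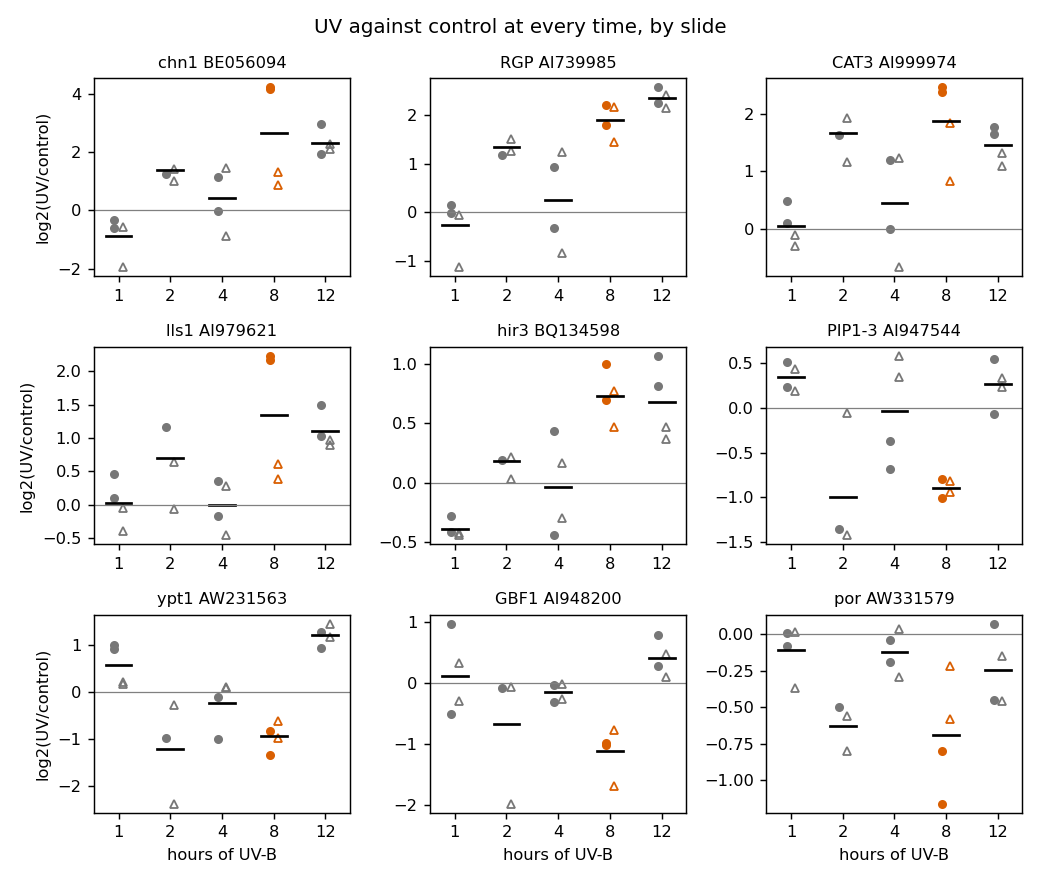
log2(UV/control) of 9 named features (vertical axes, each with its own scale) at 1, 2, 4, 8 and 12 h of UV-B (horizontal axes). Points are slides, filled circles with UV in Cy5 and open triangles with UV in Cy3, orange at 8 h, and black bars are the fitted means. The features chn1, RGP and CAT3 lie above 0 on all slides of 2, 8 and 12 h and split at 4 h, and ypt1 and GBF1 are below 0 on all slides of 8 h and above 0 on all slides of 12 h.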

How the data were processed

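The authors deposited 1 linear intensity per spot and channel; per the labels, images were analysed with TIGR Spotfinder. Whether background was subtracted, and the scanner, are not given in the sources used here. The deposited series matrix holds a processed score of unstated scale, used as an alternative only. Intensities were corrected by normexp (offset 50) and log2(UV/control) normalized by loess (span 0.3) within slides with limma 3.58.1 in R 4.3.3; the log2 values were computed from the deposited intensities. Control spots (120 of 20231) were left out and spots of a feature averaged. Features needed at least 2 slides at every time. A limma fit with 5 time means and a dye term on 19 slides (13 residual and 2.75 prior degrees of freedom) gave the contrasts, adjusted by Benjamini-Hochberg over 20014 features at 0.05. The number of slides limits precision. The fit was tested on simulated slides.

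UV and control were paired by slide, as the design states. At 1 h (slide b) and 12 h (slide c) the source label of the control gives another letter than its title, and the title was used; at 8 h they match. In UV and control, deviations from the group means on slides a to d of 8 h correlated at 0.726, 0.739, 0.824 and 0.821. Symbols came from the platform gene table: of 1334 probes, 1331 had 1 symbol, 3 several, and 1283 were found in RefSeq (Zm-B73-REFERENCE-NAM-5.0), used for names only. No sequences were used here. Named features were the 10 largest rises and 10 largest falls with 1 sign on all measured slides, up to 3 further passing members per list, 3 higher and 3 lower features with the smallest p against the other times, and other features of these genes; further names in the text were chosen after their values were seen. Members and lists were chosen with earlier results of these data known. Symbols that matched a list by accident were left out. Alternatives covered background correction, normalization, the matrix, the dye term, weights, filters, pairing and leaving out each slide.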

Additional observations from a re-analysis of the deposited data

Results flagged for a closer look

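Among the 48 named features measured on all 4 slides of 8 h, 3 had 1 slide set far apart from the others by Dixon's criterion, which chance gives in about 1 of 20 cases. The jasmonate synthesis feature aoc1 BQ294408 reached 2.44 on slide a against 0.49 to 0.59 on the other slides. The protein disulfide isomerase feature pdi AI665069 reached 2.27 on slide b against 0.25 to 0.47. The beta-expansin feature lop1 BE128826 stood at -0.00996 on slide c, close to 0, against -0.73 to -0.63 on the others.

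In 8 named features, every slide of 8 h lay on one side of 0 and every slide of another time on the other side; these differences between single times were not tested. At 1 h, fitted values opposed to 8 h were -0.87 for chn1 (slides from -1.95 to -0.34), -0.17 for hdr10 AW330866 and -0.39 for hir3 BQ134598, which rose at 8 h, and 0.34 for PIP1-3 AI947544 and 0.57 for ypt1, which fell at 8 h. At 12 h they were 1.20 for ypt1 (0.93 to 1.43), 0.41 for GBF1, 0.29 for OBF1 and 0.16 for ZCAX2, all of which fell at 8 h.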

How the results depend on the processing

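The count of 1510 features called at 8 h was 3183 with median centring, 981 with scaling between slides, 895 without the dye term, 2739 with slide weights, and 0 in both fits of the 8 h slides alone (3857 features without and 5007 with the dye term at an unadjusted p under 0.05). With no replicate block (single channels, slide ignored) it was 9. That setting also normalized intensities between slides by quantiles, and the part of the pairing alone was not tested. Leaving out a slide gave 7 to 1902, the lowest without slide a of 8 h. The comparison of 8 h with the other times, 0 calls, gave 1 with the matrix scores, 85 with slide weights, and 0 to 193 on leaving out a slide, 193 without slide c of 2 h. Under the remaining alternatives both counts stayed within 1.5 times. Of 52 named features, 30 kept their call in all 9 paired settings with 19 slides; the calls lost were 15 with scaling, 13 without the dye term, 9 each with loess within print blocks and the matrix scores, 5 with median centring and 1 without normexp. The feature glb1 AW066754 reversed to -0.16 with median centring. Values of 15 named features moved by over 1.5 times without normexp, 12 of them dimmer than the brightest foreign spot; the cause was not tested.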

Other observations

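Several named genes outside the lists also passed at 8 h, here chosen after their values were seen. The passing features included CaM1 (AI737287; 0.65, 0.57, 0.45 and 0.47 on slides a to d; 0.53 ± 0.10, adjusted p = 0.00985) and a second calmodulin feature (AI677406; 0.45 ± 0.097), both for the calcium sensor calmodulin, the phosphatase gene PP2C (BQ486413; 0.51), and mek1, for a kinase of the MAP kinase cascade (AI677483; 0.39 ± 0.088). The gene glk1, named for a golden2-like transcription factor, a family known for chloroplast development, rose by 0.62 ± 0.18 (AI619247). The thiamine synthesis gene thi2 fell (AW313328; -0.87, -0.97, 0.06 and -0.73; -0.63 ± 0.15, adjusted p = 0.0203), with slide c near 0. Brighter features were called more often: 8.43% of those above the brightest foreign spot, against 5.31% of the 5673 others.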
